A study of Rattus norvegicus with 10 samples.

Results

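Kidneys that the sample labels call necrotic, taken from rats fed corn oil without choline, were compared with kidneys of rats fed corn oil with choline. The comparison uses 4 of the 10 expression arrays of the series, 2 on each side. They were chosen by their titles alone, not by any measured value. Per the series' design text, each array holds RNA from 1 pool of 3 animals, here male weanling Wistar rats after 6 days on the diet. That text counts 4 conditions (either fat, with or without choline) with 2 pools apiece, whereas the sample labels give 5 groups of 2 arrays, and it does not mention necrotic pools. The necrotic group received the choline-deficient diet, and the control corn oil group received the choline-supplemented one. The feeding protocol describes this fat as vegetable oil, a mixture of corn and hydrogenated oils. The other arrays hold choline-deficient corn oil kidneys without the word necrotic (the deficient corn oil group) and kidneys of rats fed menhaden fish oil with or without choline, 2 pools each. Pentobarbital anaesthesia was shared by all groups. How rats were judged necrotic and sorted into pools is not given in the sources used here. A pool averages its rats, so the errors measure variation between pools. With 2 arrays a group, their number sets the precision.

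Choline is the precursor of phosphatidylcholine, the main membrane phospholipid, and of betaine, a methyl donor and renal osmolyte. Young rats deprived of choline develop acute tubular injury, mainly in the renal cortex. The proximal tubule reclaims phosphate, glucose, amino acids, peptides and filtered protein through a brush border, exports organic anions and cations, and makes glucose. Later segments reabsorb salt, calcium and water and secrete acid. Injured tubule cells are known to lose these functions, display proteins that are nearly silent in healthy tubules, and attract leukocytes.

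Values are log2 expression levels, and each difference is necrotic minus control corn oil with its moderated standard error, from 2 pools a side. The spread was estimated over all 5 groups in limma. A gene rose or fell where its Benjamini-Hochberg p-value, adjusted for all 29214 probe sets, was under 0.05. Of all probe sets 20.9% passed, 10.2% higher (2985) and 10.7% lower (3113). Among the 14506 named genes, each represented by 1 probe set, 13.3% rose (1927) and 14.8% fell (2144), together 28.1%. These are the background shares for the lists below. The median difference over genes was 0.05, so a list median is read against that value. Large falls outnumbered large rises. At least 4-fold changes (2 on the log2 scale) were 289 falls and 130 rises among the probe sets that passed, and changes of at least 3 on that scale were 78 falls and 35 rises. Centring each array on its median gave 2123 higher and 3739 lower. The median difference of the probe sets was 0.063 before that step and -0.044 after it. Without control replicate 1 there were 1451 higher and 1762 lower, without control replicate 2 there were 1413 and 1590, and without necrotic replicate 1 there were 2068 and 2063. In RNA of whole kidney, fewer cells of a type and less RNA per cell cannot be told apart.

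**Figure D1:**
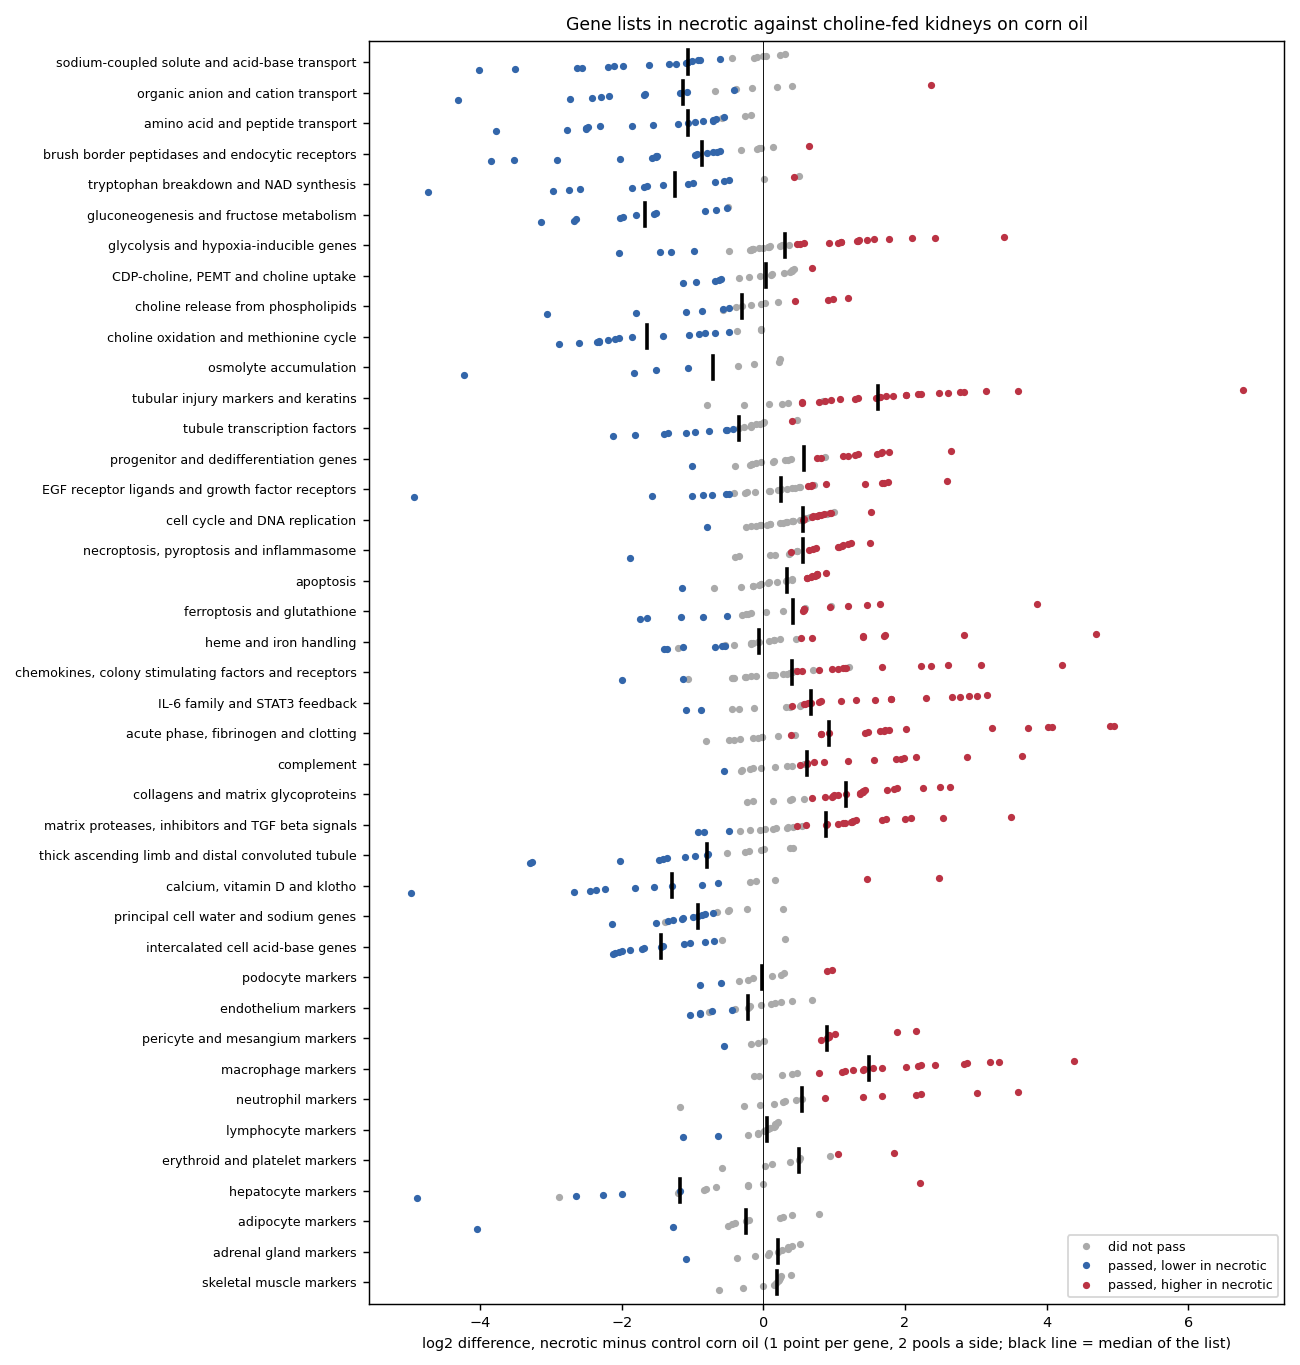
Log2 difference between necrotic and control corn oil kidneys (horizontal axis) for every measured gene of the lists, 1 point per gene and 1 row per list, with 2 pools a side; the black line is the list median, red and blue points passed the test and grey points did not. The transport lists and the list of gluconeogenesis and fructose metabolism lie mostly left of 0, with medians down to -1.68, and the tubular injury and macrophage lists mostly right, with medians of 1.61 and 1.48.

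Transcripts of sodium-coupled carriers of the proximal tubule were mostly lower in the necrotic kidneys. Of 24 measured genes 17 fell, with a median of -1.07 (15 to 17 fell when any 1 array was left out). Slc34a3, a renal sodium-phosphate cotransporter, read 12.19 and 12.20 in the control pools and 8.32 and 8.04 in the necrotic pools. The pools did not overlap, and the difference was -4.01 ± 0.20 (adjusted p = 2.5e-05). Slc34a1, the main phosphate carrier of the brush border, fell by 3.51 ± 0.11. The scaffold Pdzk1, which binds such carriers, fell by 2.19 ± 0.23, and Slc13a2, a citrate and dicarboxylate carrier, by 2.11 ± 0.26. The sodium-proton exchanger Slc9a3, the glucose carrier Slc5a2 and the lactate carrier Slc5a12 fell by 2.63 ± 0.12, 2.56 ± 0.12 and 1.61 ± 0.19.

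Another member of the phosphate carrier family moved the other way. Slc34a2, the sodium-phosphate cotransporter known from lung and intestine, read 9.44 and 9.75 in the control pools and 12.82 and 12.71 in the necrotic pools. It rose by 3.17 ± 0.20 (adjusted p = 4.8e-05) and was among the 30 largest rises over all genes. In the deficient corn oil pools it read 11.55 and 11.94, between the control and necrotic pools. The necrotic minus deficient difference was 1.02 (adjusted p = 0.0158), against -3.26 for Slc34a1 and -3.32 for Slc34a3.

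Carriers of organic anions and cations were lower as well. Of 16 measured genes 10 fell, with a median of -1.13. Slc22a8, a basolateral anion exchanger, read 13.32 and 13.46 in the control pools and 11.17 and 10.14 in the necrotic pools, a difference of -2.73 ± 0.30 (adjusted p = 0.000504). Its necrotic pools lay apart while both stayed below the controls. Slco1a6, an organic anion transporter, had the largest fall of the list at -4.31 ± 0.31. The exchanger Slc22a6 fell by 2.42 ± 0.20, and the cation transporter Slc22a2 by 2.29 ± 0.17. Slco4c1, a basolateral organic anion carrier, fell by 2.18 ± 0.34. The drug efflux pump Abcb1b was the 1 member that rose (2.36 ± 0.63, adjusted p = 0.0303), from 6.88 and 6.44 to 9.02 and 9.02. That call was lost whichever of the 4 arrays was left out. The deficient corn oil pools, which enter the shared estimate of spread, read 7.26 and 9.81 for Abcb1b. Its necrotic minus deficient difference of 0.49 did not pass (adjusted p = 0.744).

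Amino acid and peptide carriers fell in 16 of 19 measured genes, with a median of -1.07. Slc7a13, a light subunit that carries acidic amino acids, read 13.34 and 13.29 in the control pools and 9.06 and 10.01 in the necrotic pools. It fell by 3.78 ± 0.26 (adjusted p = 7.04e-05). Slc3a1, the heavy subunit with which such light chains pair, fell by 0.56 ± 0.11, from 13.47 and 13.54 to 12.94 and 12.95, and its call ended without control replicate 2. Both differences were in the same direction and of very unequal size. Slc6a19, the neutral amino acid carrier, and Cltrn, the collectrin that brings it to the brush border, fell by 2.77 ± 0.20 and 2.50 ± 0.24. The peptide carriers Slc15a2 and Slc15a1 fell by 2.48 ± 0.22 and 2.31 ± 0.38, and the GABA and betaine carrier family member Slc6a13 fell by 2.51 ± 0.22. Slc7a12, an amino acid carrier outside the list, was among the 30 largest falls at -4.17 ± 0.29.

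Brush border peptidases and receptors for filtered protein were mostly lower. Of 20 measured genes of this list 14 fell, with a median of -0.86. Mep1b and Mep1a, the meprin metalloprotease subunits, fell by 3.85 ± 0.26 and 3.52 ± 0.12. Mep1a read 12.86 and 12.96 in the control pools and 9.33 and 9.45 in the necrotic pools, so its pools did not overlap. Xpnpep2, an aminopeptidase P, fell by 2.91 ± 0.20, the dipeptidase Dpep1 by 2.02 ± 0.18, Anpep by 1.57 ± 0.13 and Dpp4 by 1.51 ± 0.14. Lrp2, the endocytic receptor megalin, fell by 1.50 ± 0.16, from 13.19 and 13.14 to 11.50 and 11.82. Its partner receptor Cubn, cubilin, read 12.98 and 13.07 against 12.77 and 12.65. The Cubn difference was -0.31 ± 0.12 and did not pass (adjusted p = 0.112). Ace, the angiotensin-converting enzyme, was the 1 member that rose, at 0.65 ± 0.15, a call lost without necrotic or control replicate 1.

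**Figure D2:**
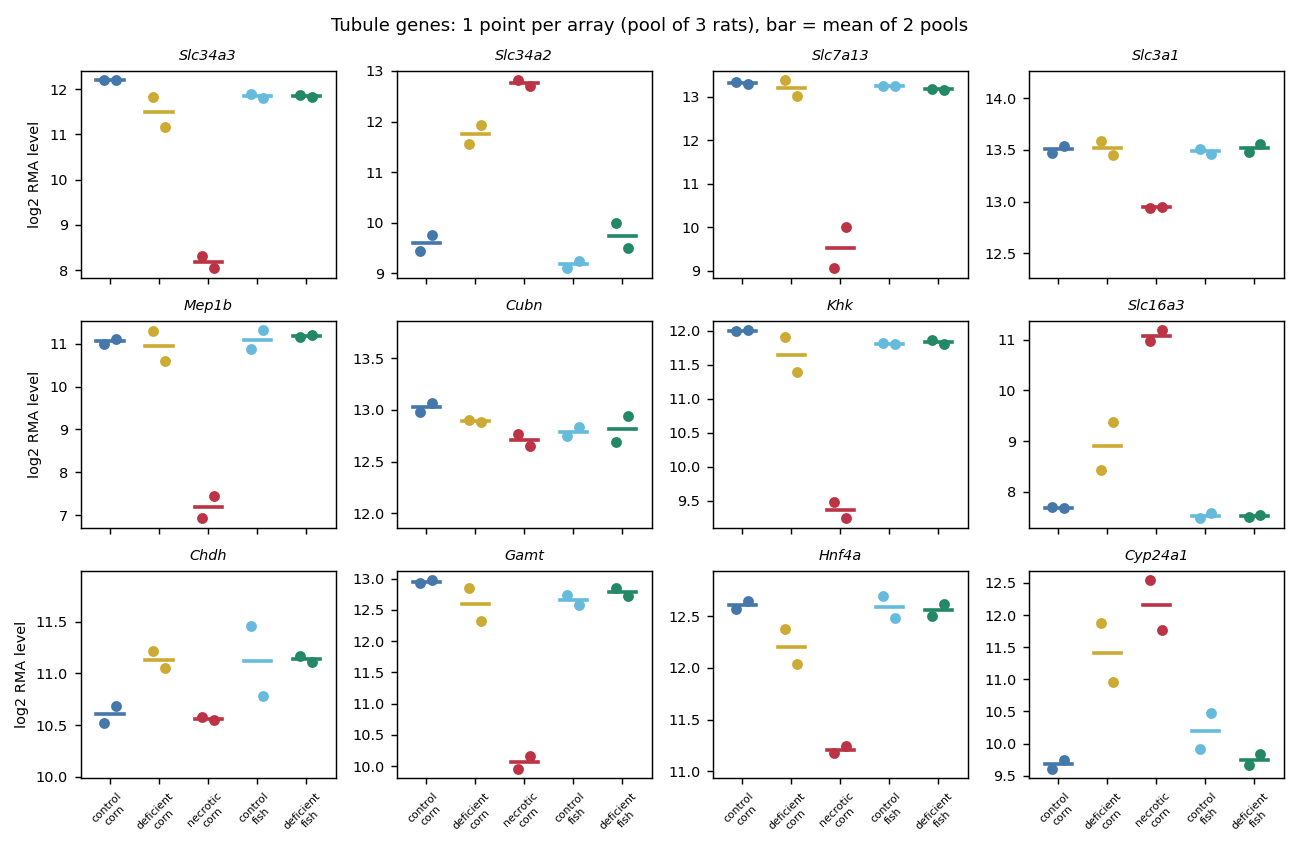
Log2 RMA level (vertical axes, each with its own range) of 12 tubule genes on the 10 arrays; each point is 1 pool of 3 rats, coloured by group, and each bar the mean of 2 pools. Slc34a3, Slc7a13, Mep1b, Khk and Gamt lie lower in the necrotic pools than in the other 8 pools, Slc34a2 and Slc16a3 are highest there with the deficient corn oil pools between them and the controls, and Cubn and Chdh did not pass the test between necrotic and control pools.

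Genes that break down tryptophan and build NAD from it were lower. Of 16 measured genes 13 fell and 1 rose, with a median of -1.24. The rise was that of Nnmt, which methylates nicotinamide (0.43 ± 0.12), a call that ended without necrotic replicate 2 or either control array. Acmsd, which diverts an intermediate of the route away from NAD, read 12.51 and 12.47 in the control pools and 7.57 and 7.92 in the necrotic pools, a fall of 4.74 ± 0.25. Kynu, Kmo and Haao, enzymes of the kynurenine branch, fell by 2.97 ± 0.35, 2.75 ± 0.29 and 2.59 ± 0.27. Qprt, which turns quinolinate into an NAD precursor, fell by 1.86 ± 0.26, and the transaminase Kyat3 by 1.68 ± 0.16. Nampt, the rate-limiting enzyme of NAD salvage, differed by 0.50 ± 0.17 and did not pass (adjusted p = 0.0654). Its pools did not overlap, at 9.50 and 9.59 against 9.83 and 10.26. Ddc, which decarboxylates aromatic amino acids, was among the 30 largest falls at -4.34 ± 0.22.

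Transcripts of glucose production and fructose metabolism were mostly lower, and some of glycolysis were higher. Of 12 measured genes of gluconeogenesis and fructose metabolism 11 fell, with a median of -1.68, the lowest among the 41 lists. Tkfc and Khk, the kinases of fructose metabolism, fell by 3.14 ± 0.20 and 2.65 ± 0.17. Khk read 12.00 and 12.01 in the control pools and 9.48 and 9.24 in the necrotic pools. Pc, pyruvate carboxylase, fell by 2.68 ± 0.15, G6pc1, which releases free glucose, by 2.02 ± 0.25, Sord, of the polyol route, by 1.98 ± 0.19 and Fbp1 by 1.52 ± 0.14. Pck1, the cytosolic carboxykinase, fell by 1.80 ± 0.40 with unequal necrotic pools of 12.19 and 10.64. Its call ended without either control array and when only the groups compared were fitted.

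Of 34 measured genes of glycolysis and of the hypoxia response 16 rose and 4 fell, with a median of 0.31. Slc16a3, the lactate exporter, read 7.69 and 7.68 in the control pools and 10.98 and 11.19 in the necrotic pools. It rose by 3.40 ± 0.26 (adjusted p = 9.52e-05). Eno2, a brain-type enolase, rose by 2.42 ± 0.19, and Hk2, the inducible hexokinase, by 1.56 ± 0.20. Adm, adrenomedullin, and Ero1a, an oxidase of protein folding, both known to be induced by hypoxia, rose by 2.10 ± 0.13 and 1.77 ± 0.18. Pklr, the liver-type pyruvate kinase, fell by 2.04 ± 0.36. Vegfa, the endothelial growth factor and a textbook hypoxia target, read 10.89 and 11.11 against 11.03 and 11.14, a difference of 0.08 ± 0.12 (adjusted p = 0.662). Members of this list thus lay on both sides of 0.

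Among genes of choline use, those of oxidation and methyl transfer had the lowest list median. Of 18 measured genes of choline oxidation and the methionine cycle 15 fell, with a median of -1.64. Gamt, which makes creatine, read 12.93 and 12.97 in the control pools and 9.96 and 10.16 in the necrotic pools, a difference of -2.89 ± 0.17. Bhmt, which uses betaine to remethylate homocysteine, fell by 2.60 ± 0.42, with necrotic pools of 9.49 and 8.31. Gnmt, a glycine methyltransferase, fell by 2.35 ± 0.21, the homocysteine methyltransferase Bhmt2 fell by 2.32 ± 0.19, and Cbs and Cth, the transsulfuration enzymes, fell by 2.32 ± 0.20 and 2.20 ± 0.23. Chdh, which takes the first step from choline to betaine, read 10.52 and 10.69 against 10.58 and 10.55. Its difference was -0.04 ± 0.20 (adjusted p = 0.913), and its pools overlapped.

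Of 16 measured genes of phosphatidylcholine synthesis and choline uptake 5 fell and 1 rose, with a median of 0.03, which is close to that of all genes. Slc44a1, a choline transporter, rose by 0.68 ± 0.15. Chka, the choline kinase that starts the CDP-choline route, read 9.04 and 8.94 against 9.54 and 9.25, and its difference of 0.40 ± 0.14 did not pass (adjusted p = 0.08). Chpt1 and Cept1, which join choline to diacylglycerol, fell by 0.95 ± 0.18 and 0.69 ± 0.10. Slc44a3 of the choline transporter family fell by 1.13 ± 0.19, Pcyt2 of the ethanolamine route by 0.63 ± 0.17 and Flvcr2 by 0.60 ± 0.18. The falls numbered 3 without necrotic replicate 2 or without either control array. In those same 3 refits the Slc44a1, Pcyt2 and Flvcr2 calls ended, and that of Flvcr2 ended without necrotic replicate 1 too.

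Of 17 measured genes that release choline from phospholipids 6 fell and 4 rose, and without control replicate 1 the falls numbered 2. Enpp6, a phosphodiesterase that frees phosphocholine, read 12.24 and 12.34 in the control pools and 9.02 and 9.47 in the necrotic pools. It fell by 3.05 ± 0.19 (adjusted p = 4.8e-05). Enpp2, autotaxin, fell by 1.80 ± 0.23, and Gpcpd1, which splits glycerophosphocholine, by 1.09 ± 0.21, a call that ended without control replicate 1. Pla2g15, a lysosomal phospholipase, rose by 1.19 ± 0.20, the phospholipase Pld2 by 0.98 ± 0.14 and Lpcat1, which reacylates lysophosphatidylcholine, by 0.91 ± 0.14. Of 8 measured osmolyte genes 4 fell, and 2 without necrotic replicate 1 or without either control array. Miox and Slc5a11, which degrade and carry inositol, fell by 4.23 ± 0.15 and 1.83 ± 0.20. Hspa4l, a chaperone of this response, had -1.07 ± 0.25, a call lost without necrotic replicate 1 or either control array. Slc5a3, the inositol carrier induced by high salt, differed by -0.13 ± 0.17 (adjusted p = 0.651). Akr1b1, aldose reductase, had -1.52 ± 0.45 (adjusted p = 0.0433), and its call was lost whichever of the 4 arrays was left out, after quantile normalization or cyclic loess, and with a trended prior.

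Genes of distal segments were lower as well. Of 17 measured genes of the thick ascending limb and distal convoluted tubule 10 fell, with a median of -0.80. Slc12a3, the thiazide-sensitive cotransporter, fell by 3.27 ± 0.15, while Slc12a1, the furosemide-sensitive cotransporter of the thick limb, fell by 0.80 ± 0.13. Slc12a1 read 12.78 and 12.79 against 11.87 and 12.10. The potassium channels Kcnj10 and Kcnj16 fell by 2.03 ± 0.17 and 1.36 ± 0.12, and Bsnd, a subunit of chloride channels, by 1.42 ± 0.18. Of 17 measured principal cell genes 11 fell, with a median of -0.92 (7 fell without control replicate 2). Kcne1, a potassium channel subunit, fell by 2.14 ± 0.18, Hsd11b2, which inactivates glucocorticoid, by 1.35 ± 0.15, Nr3c2, the mineralocorticoid receptor, by 1.15 ± 0.14, and the sodium channel subunits Scnn1g and Scnn1b by 1.13 ± 0.14 and 0.82 ± 0.13. Aqp2, the vasopressin-regulated water channel, fell by 1.28 ± 0.29, with unequal necrotic pools of 12.15 and 11.18, and its call ended without either control array.

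Of 15 measured intercalated cell genes 13 fell, with a median of -1.44, the lowest of the distal lists. Atp6v1b1, a proton pump subunit, read 11.21 and 11.42 in the control pools and 9.37 and 9.07 in the necrotic pools, a fall of 2.10 ± 0.14. The anion exchangers Slc26a7 and Slc26a4 fell by 2.04 ± 0.19 and 1.89 ± 0.24, the receptor Insrr by 1.99 ± 0.17 and Hepacam2 by 1.72 ± 0.12. Foxi1, the transcription factor of these cells, fell by 1.09 ± 0.12. The falls thus covered proton pumps, anion exchangers and the transcription factor of these cells.

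Of 15 measured genes of calcium, vitamin D and klotho 10 fell and 2 rose, with a median of -1.29. Calb1, a calcium buffer of the distal tubule, read 12.29 and 12.13 in the control pools and 7.35 and 7.11 in the necrotic pools. It fell by 4.98 ± 0.31, the largest fall of all named genes. Kl, klotho, the coreceptor for the phosphate hormone FGF23, fell by 2.45 ± 0.17, from 12.51 and 12.45 to 9.94 and 10.11. Casr, the calcium-sensing receptor, fell by 2.68 ± 0.18, S100g, a calcium-binding protein, by 2.36 ± 0.16 and Cyp2r1, a vitamin D hydroxylase, by 2.23 ± 0.16. Cyp24a1, which inactivates vitamin D, moved the other way. It rose by 2.48 ± 0.34 (adjusted p = 0.00136), from 9.61 and 9.74 to 12.54 and 11.77, and its pools did not overlap. Trpv6, an apical calcium channel, was the other rise (1.46 ± 0.22).

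Transcription factors that maintain tubule identity fell in 10 of 21 measured genes, with a median of -0.34, and 6 fell without control replicate 2. The 1 rise, of the epithelial factor Grhl2 (0.40 ± 0.12), was lost whichever of the 4 arrays was left out. Hnf4a, a nuclear receptor that drives proximal tubule genes, read 12.57 and 12.65 in the control pools and 11.18 and 11.24 in the necrotic pools. It fell by 1.40 ± 0.14 (adjusted p = 0.000328). Its relative Hnf4g fell by 2.13 ± 0.31, the fatty acid sensor Ppara by 1.81 ± 0.22, the bile acid receptor Nr1h4 by 1.35 ± 0.18 and Maf by 0.97 ± 0.15. Among genes of progenitor and dedifferentiated tubule cells 11 of 24 measured rose and 1 fell, with a median of 0.57. The fall was that of Lhx1, a factor of the embryonic kidney (-1.01 ± 0.16). Runx1, a transcription factor, read 8.68 and 8.76 against 11.35 and 11.38, a rise of 2.65 ± 0.15 (adjusted p = 3.05e-05). Tpbg, a surface glycoprotein of trophoblast, rose by 1.77 ± 0.13, Birc3, an inhibitor of apoptosis, by 1.68 ± 0.14, the adhesion molecule Ncam1 by 1.60 ± 0.16, Aldh1a2, which makes retinoic acid, by 1.34 ± 0.14 and Vim, vimentin, by 1.29 ± 0.13. Cdh6, a cadherin of the developing tubule, had 1.66 ± 0.35, and its call ended without either control array. Sox9 had no named probe set and was not analysed here.

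Growth factor genes moved both ways. Of 31 measured ligands, binding proteins and receptors 9 rose and 7 fell, and 4 fell without control replicate 2. Egf, which healthy distal tubules secrete, read 12.56 and 12.65 in the control pools and 7.68 and 7.67 in the necrotic pools. Other ligands of the same receptor rose instead. Ereg, Areg and Hbegf rose by 1.70 ± 0.16, 1.68 ± 0.13 and 1.76 ± 0.22, and Areg read 6.52 and 6.54 against 8.04 and 8.38. Igfbp1 and Igfbp5, binding proteins of insulin-like growth factors, went apart, at 2.59 ± 0.20 and -1.57 ± 0.16. Against the deficient corn oil kidneys Egf (-4.57), Ereg (1.12), Areg (0.90) and Igfbp5 (-1.23) passed too. Hbegf (-0.16, adjusted p = 0.764) and Igfbp1 (-0.48, adjusted p = 0.192) did not pass in that comparison. Of 35 measured cell cycle genes 12 rose and 1 fell, with a median of 0.56. That count was 3 without necrotic replicate 2, 4 without control replicate 1, 2 without control replicate 2, and 6 after median centring or cyclic loess. Mcm5, a replication helicase subunit, read 8.40 in necrotic replicate 1 and 9.05 in replicate 2, against 7.82 and 7.75. The calls of Mcm5, Mcm6, Aurkb and Bub1b ended without necrotic replicate 2 and without either control array, and the last 3 also after median centring or cyclic loess and with only the groups compared. The fish oil arrays stood below the control corn oil arrays on this list, with medians of -0.58 to -0.69 relative to the control corn oil mean. Ccnd1, cyclin D1, fell by 0.79 ± 0.13. Cdkn1a, the p21 inhibitor, rose by 1.52 ± 0.25, from 9.24 and 9.41 to 10.98 and 10.71.

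Injury markers rose in 24 of 30 measured genes, with a median of 1.61. Havcr1, which injured proximal cells display, had the largest rise of all named genes, 6.77 ± 0.60. Its control pools read 6.67 and 6.56, its necrotic pools 13.24 and 13.53, and its deficient corn oil pools 11.82 and 13.11. The necrotic minus deficient difference of Havcr1 was 0.92 and did not pass (adjusted p = 0.43). Slpi, a secreted protease inhibitor, read 8.05 and 8.14 in the control pools and 11.58 and 10.89 in the necrotic pools, a rise of 3.14 ± 0.37. Timp1, an inhibitor of metalloproteases, and Il24, a cytokine, rose by 2.83 ± 0.29 and 2.77 ± 0.27. Krt8, an epithelial keratin, rose by 0.78 ± 0.13, from 11.05 and 11.01 to 11.73 and 11.88. The largest rises outside the lists included Niban1, a stress-induced protein (3.55 ± 0.20), Lilrb4, an inhibitory leukocyte receptor (3.51 ± 0.31), Nos2, the inducible nitric oxide synthase (3.16 ± 0.30), Trem1, a receptor of myeloid cells (3.14 ± 0.40), and Angptl4, an inhibitor of lipoprotein lipase (3.11 ± 0.20). Nos2 read 6.45 and 6.46 in the control pools, 10.09 and 9.14 in the necrotic pools and 6.49 and 7.12 in the deficient corn oil pools. Its necrotic minus deficient difference of 2.81 passed (adjusted p = 0.00113).

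Of 20 measured genes of necroptosis, pyroptosis and the inflammasome 11 rose and 1 fell, with a median of 0.56. The rises numbered 7 without either necrotic array and 4 without either control array. Ripk3, the kinase of necroptosis, read 7.07 and 7.01 in the control pools and 8.43 and 8.65 in the necrotic pools. It rose by 1.50 ± 0.24 (adjusted p = 0.00301). The inflammatory caspase Casp4 rose by 1.12 ± 0.21, a call that ended without control replicate 2. Pycard, the inflammasome adaptor, had 1.19 ± 0.27 and Il1b, interleukin 1 beta, 1.24 ± 0.38. The Pycard call was lost whichever of the 4 arrays was left out, and that of Il1b without necrotic replicate 1 or either control array and under 5 other settings. Casp12 had 1.11 ± 0.24, a call that ended without necrotic replicate 2 or either control array. Gsdme, a pore-forming gasdermin, was the 1 member that fell. It read 9.03 and 9.13 in the control pools and 6.99 and 7.39 in the necrotic pools, a fall of 1.89 ± 0.27 (adjusted p = 0.00163), and no alternative that was run ended that call. The necroptosis executor Mlkl had no named probe set and was not analysed here.

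Of 24 measured apoptosis genes 9 rose and 1 fell, with a median of 0.33, and 2 rose without either control array. Bcl2a1, a survival protein of leukocytes, rose by 0.88 ± 0.16. The death receptor Fas had 0.73 ± 0.14 and the BH3 protein Pmaip1 0.76 ± 0.17. The Fas call ended without control replicate 2, and the Pmaip1 call without necrotic replicate 1 or either control array. Apaf1 and Tp53inp1, which act in cell death, had 0.76 ± 0.21 each, and both calls ended without either control array, that of Apaf1 also without necrotic replicate 2 and that of Tp53inp1 also without necrotic replicate 1. Median centring ended both, and cyclic loess that of Apaf1. Sesn1, a stress-induced sestrin, fell by 1.15 ± 0.15. Bax, the mitochondrial pore protein, differed by 0.34 ± 0.16 and did not pass (adjusted p = 0.186).

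Genes of ferroptosis and glutathione divided into rises and falls. Of 22 measured genes 9 rose and 5 fell, and 5 rose without control replicate 1. Slc7a11, the cystine importer, read 5.10 and 5.16 in the control pools and 8.92 and 9.07 in the necrotic pools. Acsl4, which loads polyunsaturated fatty acids into phospholipids, rose by 1.20 ± 0.12, Nqo1, a quinone reductase, by 1.64 ± 0.29 and Srxn1, sulfiredoxin, by 1.47 ± 0.15. Gclc, the catalytic subunit of the rate-limiting enzyme of glutathione synthesis, moved against Slc7a11. It read 13.80 and 13.79 against 11.90 and 12.21, a fall of 1.74 ± 0.16 (adjusted p = 2e-04). Ggct, of the same cycle, fell by 1.64 ± 0.12. Gpx4, the peroxidase that guards phospholipids, differed by -0.22 ± 0.13 (adjusted p = 0.291), with pools of 10.28 and 10.21 against 10.11 and 9.95.

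Of 27 measured genes of heme and iron handling 8 rose and 6 fell, with a median of -0.06. The falls numbered 2 without necrotic replicate 1, 3 without necrotic replicate 2, and 1 without either control array. Hmox1, which opens heme, read 6.93 on both control arrays and 11.79 and 11.46 on the necrotic arrays, a rise of 4.69 ± 0.47. Cp, the plasma ferroxidase, and Slc39a14, a carrier of zinc and iron, rose by 1.72 ± 0.23 and 1.71 ± 0.15, and Lrp1, which takes up heme bound to hemopexin, by 1.41 ± 0.17. Tfrc, the transferrin receptor, had -1.40 ± 0.28, from 9.89 and 9.92 to 8.59 and 8.43. Its pools did not overlap, and its call ended without either control array.

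Chemokine genes rose in 14 of 36 measured members, with 2 that fell and a median of 0.41 (4 fell without necrotic replicate 2). Cxcl2, which draws neutrophils, read 5.04 and 4.95 in the control pools and 9.54 and 8.90 in the necrotic pools. Its difference of 4.22 ± 0.25 was the largest of the list (adjusted p = 3.87e-05). In the deficient corn oil pools it read 6.28 and 5.83, and the necrotic minus deficient difference of 3.17 passed (adjusted p = 0.000317). Cxcl1, a chemokine with the same receptor, had 1.68 ± 0.38, with necrotic pools of 9.46 and 8.41, and its call ended without necrotic replicate 1 or either control array. Ccl3 and Ccl6, chemokines of monocytes, rose by 3.07 ± 0.13 and 2.61 ± 0.18, and the receptors Ccr1 and Cxcr2 by 2.36 ± 0.26 and 2.22 ± 0.28. Ccl2, the main monocyte attractant, read 11.24 and 11.50 in the control pools, 12.87 and 12.28 in the necrotic pools and 13.34 and 13.31 in the deficient corn oil pools. Its difference of 1.21 ± 0.67 did not pass (adjusted p = 0.249). That error draws on all 5 groups, and the fish oil pools read 11.36 and 9.50 without choline and 11.27 and 9.36 with it. The Ccl2 level was highest in the deficient corn oil pools, but the necrotic minus deficient difference of -0.75 did not pass (adjusted p = 0.594). Cxcl13, which attracts B cells, fell by 1.99 ± 0.34.

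**Figure D3:**
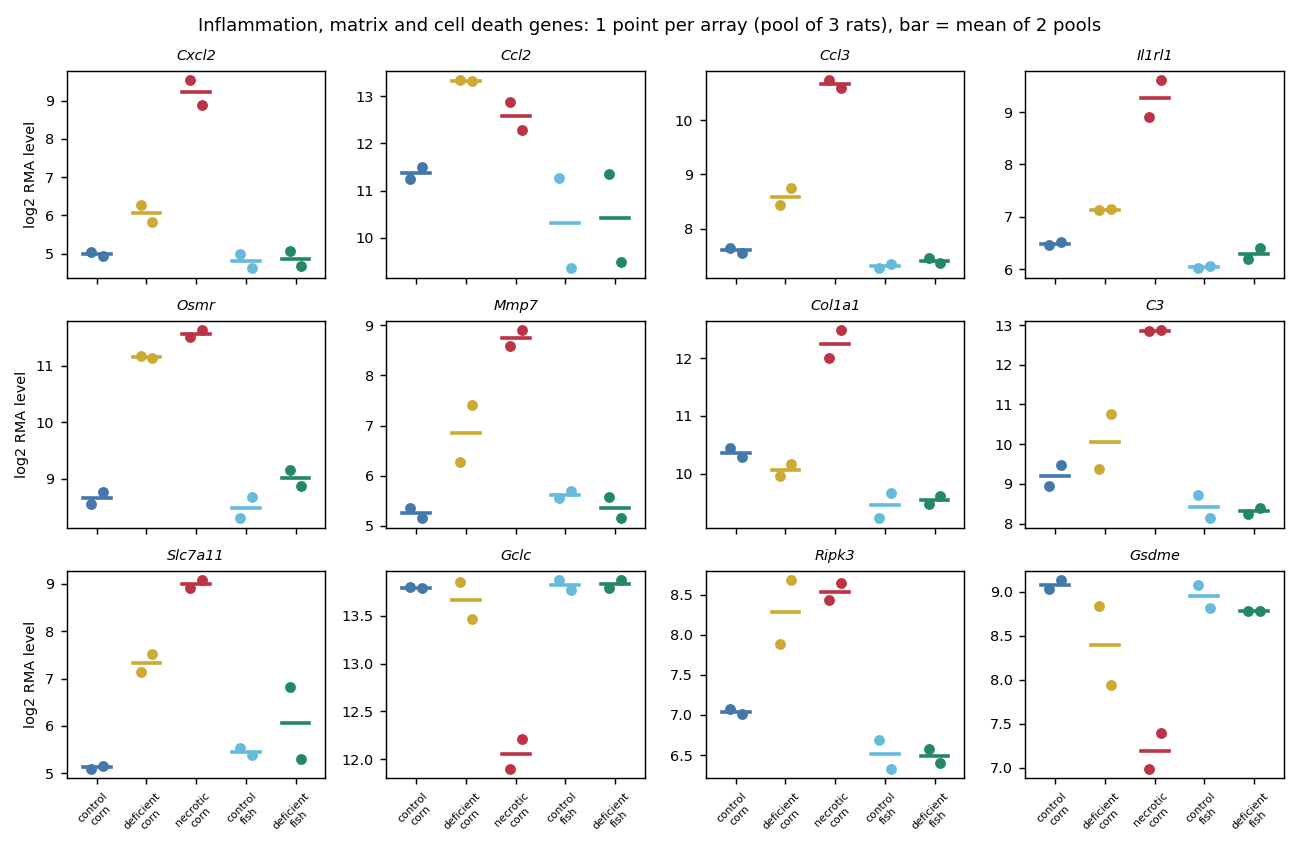
Log2 RMA level (vertical axes, each with its own range) of 12 genes of inflammation, matrix and cell death on the 10 arrays; each point is 1 pool of 3 rats, coloured by group, and each bar the mean of 2 pools. Cxcl2 and Col1a1 stand high in the necrotic pools, Osmr is raised in the deficient corn oil pools as well, Ccl2 is highest in the deficient corn oil pools, and Gclc and Gsdme are low in the necrotic pools.

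Promoter sequences of genes that moved in this comparison were taken from RefSeq (GRCr8). The 250 bases before each start were searched on both strands for the NF-kB motif and for CAAAGTCCA (bound by HNF4), TGANTCA (AP-1) and TTCCNGGAA (STAT). The sequences shown belong to genes named here whose windows hold a match, with matches in capitals and all of them written 5′ to 3′ on the gene's strand. Among named genes that fell, Dpep1 and Slc22a2 hold NF-kB matches, and Ddc, Kcne1 and Qprt, among others, hold AP-1 matches. Of the printed genes, which rose, Cxcl2 and Cxcl1 hold NF-kB matches and Mmp7 an AP-1 match. They cover chr14:17467256-17467375 (minus strand), chr14:17479322-17479441 (minus) and chr8:13132923-13133042 (plus) in that order.
Cxcl2: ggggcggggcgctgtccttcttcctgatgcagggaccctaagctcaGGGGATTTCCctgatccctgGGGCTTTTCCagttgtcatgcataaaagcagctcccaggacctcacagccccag
Cxcl1: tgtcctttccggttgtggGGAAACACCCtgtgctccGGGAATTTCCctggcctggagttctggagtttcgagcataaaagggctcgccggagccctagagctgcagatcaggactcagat
Mmp7: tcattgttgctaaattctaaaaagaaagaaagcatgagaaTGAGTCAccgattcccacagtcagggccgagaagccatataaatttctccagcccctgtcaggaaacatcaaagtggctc

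At least 2-fold rises numbered 591 (4.07% of genes), of which 459 had a promoter in the table, and such falls 810 (5.58%), of which 653 had one. The background is the 11968 measured genes with a promoter, followed by all 27457 promoters. AP-1 matches stood in 11.1% of the promoters of these rises (51) and 4.75% of those of the falls (31), against 5.49% and 6.36% in the backgrounds. NF-kB matches stood in 2.83% (13) and 1.84% (12), against 1.48% and 1.28%. HNF4 matches stood in 0.654% (3) and 1.23% (8), against 0.351% and 0.331%. STAT matches stood in 0.871% (4) and 1.07% (7), against 1.04% in both backgrounds. These shares describe letters in a window and were not tested, and a match is not a site of binding.

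Of 27 measured genes of the gp130 cytokines, their signalling and feedback, and the systems of interleukin 1, interleukin 10 and interleukin 33, 18 rose and 2 fell, with a median of 0.67 (12 rose without control replicate 1). Osmr, the oncostatin M receptor, read 8.56 and 8.77 in the control pools and 11.51 and 11.63 in the necrotic pools. It rose by 2.91 ± 0.16 (adjusted p = 2.89e-05), and the deficient corn oil pools, at 11.18 and 11.13, lay close to the necrotic ones. The necrotic minus deficient difference of Osmr was 0.42 and did not pass (adjusted p = 0.152). Lif, a cytokine of this family, rose by 2.66 ± 0.23, and Il1rn, the natural antagonist of interleukin 1, by 2.29 ± 0.20. Il1rl1, the receptor for interleukin 33, rose by 2.77 ± 0.20 and stood apart from the deficient corn oil pools as well, at 8.91 and 9.61 against 7.13 and 7.15 (difference 2.12, adjusted p = 0.000702).

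Of 27 measured acute phase and clotting genes 17 rose, with a median of 0.93. The fibrinogen chain Fgb read 7.49 and 7.65 in the control pools and 11.76 and 11.41 in the necrotic pools. F3, tissue factor, which starts clotting, rose by 0.93 ± 0.13, from 10.39 and 10.47 to 11.42 and 11.31. Deficient corn oil pools read 11.56 and 11.75 for F3, above both necrotic pools, but the necrotic minus deficient difference of -0.29 did not pass (adjusted p = 0.229). Of 23 measured complement genes 13 rose and 1 fell, with a median of 0.61 (8 rose without necrotic replicate 2). The fall, of the lectin pathway protease Masp1 (-0.56 ± 0.12), ended without necrotic replicate 1 or either control array. C3, the central component, read 8.94 and 9.47 in the control pools, 9.37 and 10.75 in the deficient corn oil pools and 12.84 and 12.87 in the necrotic pools. It rose by 3.65 ± 0.40 (adjusted p = 0.000467). C1qc and C1qa, of the first component, rose by 2.15 ± 0.18 and 1.87 ± 0.20, the anaphylatoxin receptor C5ar1 by 1.98 ± 0.30 and C4bpa, a fluid-phase inhibitor, by 1.94 ± 0.27.

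Collagens and matrix glycoproteins were higher in the necrotic kidneys. Of 25 measured genes 19 rose, with a median of 1.17. Col1a1, a chain of type I collagen, read 10.45 and 10.28 in the control pools, 9.95 and 10.16 in the deficient corn oil pools and 12.00 and 12.49 in the necrotic pools. It rose by 1.88 ± 0.20 (adjusted p = 0.00044), and its necrotic minus deficient difference of 2.19 passed too (adjusted p = 0.000638). Col1a2 and Col12a1 rose by 1.75 ± 0.20 and 1.84 ± 0.24, Lamb3, a laminin chain, by 2.63 ± 0.31, Vcan, versican, by 2.25 ± 0.32 and Fn1, fibronectin, by 1.39 ± 0.19. In the comparison with the deficient corn oil kidneys 19 of the 25 measured were higher, against 6.41% of all genes in that direction. Among proteases, inhibitors and TGF beta signals 17 of 31 measured rose and 3 fell, with a median of 0.89 (1 fell without necrotic replicate 2 or without control replicate 2). Mmp7, the metalloprotease matrilysin, read 5.35 and 5.16 in the control pools and 8.59 and 8.90 in the necrotic pools, a rise of 3.49 ± 0.32. Inhba, an activin subunit, rose by 2.53 ± 0.19, the aggrecanases Adamts1 and Adamts4 by 2.09 ± 0.18 and 1.73 ± 0.16, and Tgfb1 by 1.24 ± 0.16. Bmp7, a tubule morphogen, had -0.48 ± 0.13, a call lost whichever of the 4 arrays was left out and after quantile normalization.

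Macrophage and pericyte markers were mostly higher, and the part of other cell types' markers in the results above was not tested. Of 22 measured macrophage markers 17 rose, with list medians of 1.50 and 1.47 on the necrotic arrays relative to the control mean, against 0.53 and 0.99 on the deficient corn oil arrays. The defining marker Cd68 rose by 2.43 ± 0.20, from 8.85 and 8.93 to 11.40 and 11.24, and Fcgr2b, an IgG receptor, by 3.20 ± 0.40. Of 15 measured neutrophil markers 7 rose, with list medians of 0.83 and 0.27, and S100a9 rose by 2.16 ± 0.23. Of 11 measured pericyte and mesangium markers 7 rose and 1 fell (none fell without necrotic replicate 1 or control replicate 2), with Des, desmin, at 2.16 ± 0.15, Tagln, of smooth muscle, at 1.88 ± 0.16 and Pdgfra at 0.93 ± 0.14. Nkg7, a gene of cytotoxic lymphocytes, fell by 1.13 ± 0.17, and 2 of 14 lymphocyte markers fell in all, near the 14.8% of all genes. Without any 1 of the arrays compared that count was 1. Pf4, platelet factor 4, and Hemgn were the 2 of 9 erythroid and platelet markers that rose, at 1.84 ± 0.13 and 1.05 ± 0.16, against 13.3% of all genes. Of 16 endothelium markers 5 fell, and 3 without necrotic replicate 1 or without either control array, with Tek, the angiopoietin receptor, at -0.90 ± 0.15.

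Of 10 measured podocyte markers 2 were higher and 2 lower, near the shares over all genes (13.3% higher and 14.8% lower). Kirrel1, of the slit diaphragm, rose by 0.97 ± 0.15, while the Nphs1 and Podxl calls (-0.90 ± 0.19 and -0.60 ± 0.12) were lost without necrotic replicate 1 or control replicate 2, and that of Nes (0.90 ± 0.21) without necrotic replicate 2 or without control replicate 1 and with only the groups compared. Of 15 measured hepatocyte markers 5 fell and 1 rose, and 3 fell without either necrotic array or without control replicate 2. Alb, albumin, read 11.32 and 12.18 in the control pools and 6.59 and 7.15 in the necrotic pools. On the deficient corn oil arrays it read 6.69 and 11.09, so it differed widely within a group as well. The Alb difference was -4.89 ± 1.19, and its call was lost whichever of the 4 arrays was left out. Cyp2e1, a cytochrome, and Apoc3, an apolipoprotein, fell by 2.65 ± 0.27 and 1.99 ± 0.24, and Arg1, arginase, rose by 2.21 ± 0.28. Of 11 measured adipocyte markers 2 fell, against 14.8% of all genes, and 1 without necrotic replicate 2 or without either control array. Ucp1, the uncoupling protein of brown fat, read 10.36 and 10.99 in the control pools and 7.35 and 5.89 in the necrotic pools, a fall of 4.05 ± 0.75. Of 11 adrenal gland markers 1 fell, below the share over all genes. It was Cyp17a1 at -1.10 ± 0.21, a call that ended without control replicate 2. None of the 10 skeletal muscle markers passed in the limma fit (2 at an unadjusted p under 0.05), and Acta1, skeletal actin, differed by 0.39 ± 0.15 (adjusted p = 0.114).

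**Figure D4:**
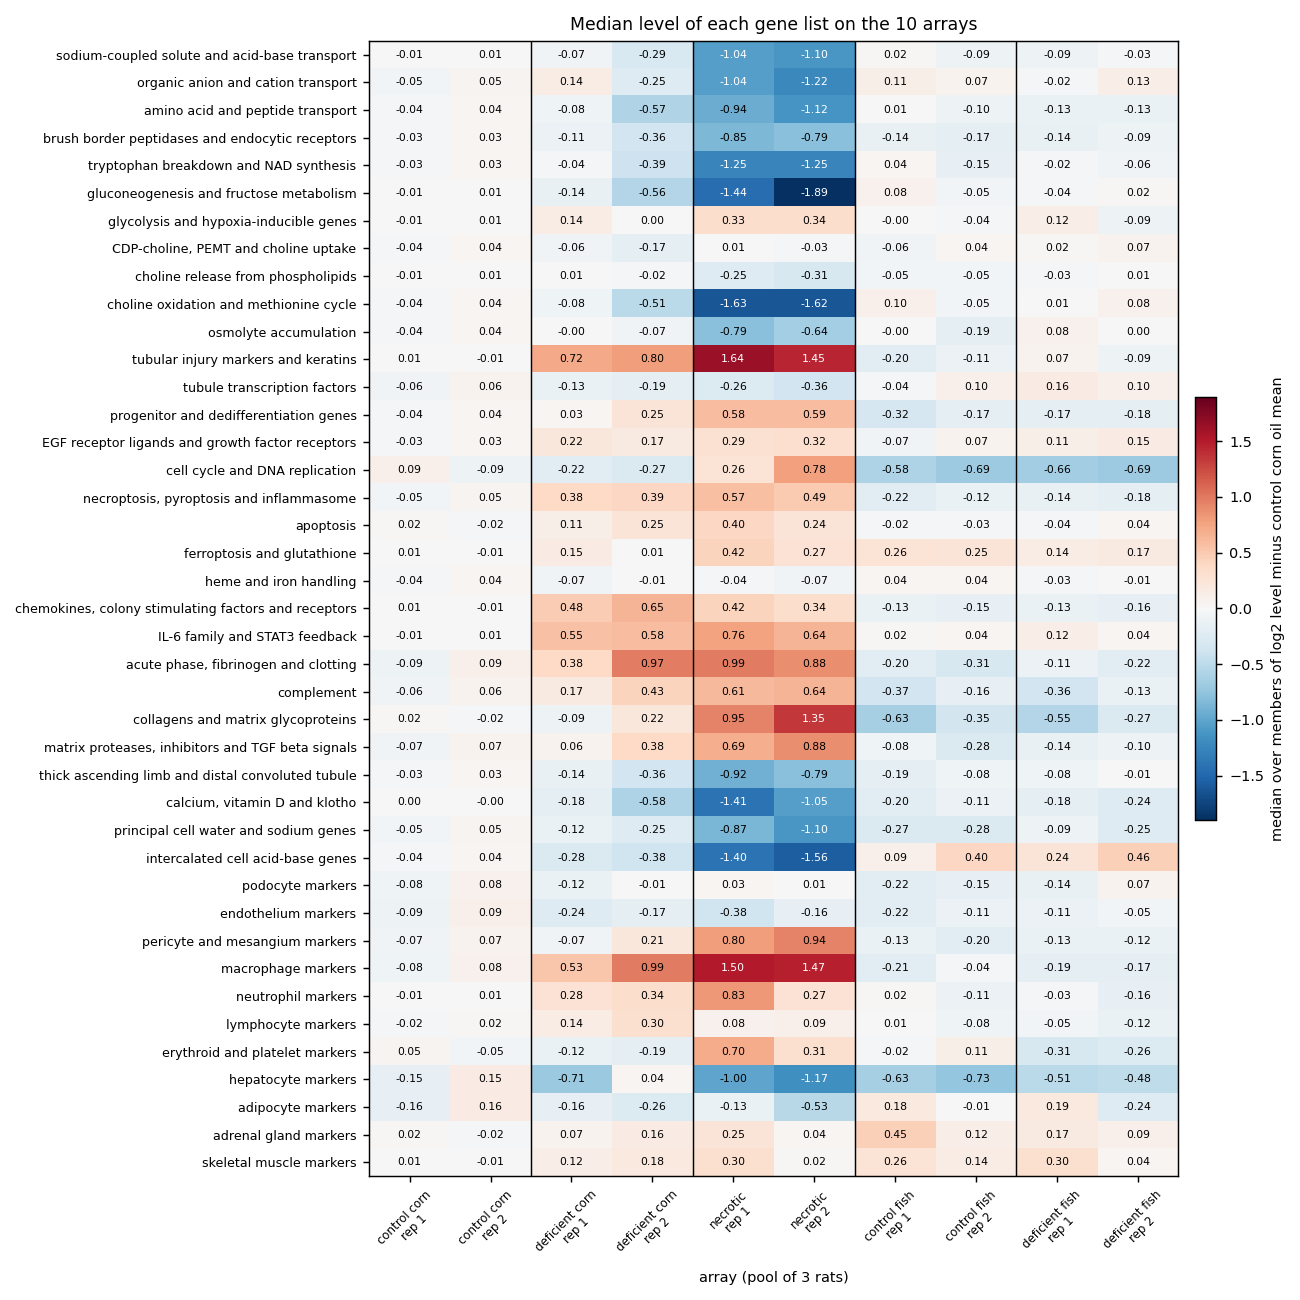
Median over the measured genes of each list of the log2 level minus the mean of the 2 control corn oil pools (colour and printed value) on each of the 10 arrays. Both necrotic arrays stand apart in the transport, metabolic, injury, matrix and macrophage lists, for example -1.63 and -1.62 for choline oxidation and the methionine cycle, where replicates 1 and 2 of the deficient corn oil kidneys had -0.08 and -0.51.

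The deficient corn oil kidneys, which had the same diet, were the third point of reference. Between necrotic and deficient kidneys 14.2% of genes passed, 6.41% higher and 7.8% lower. Sodium-coupled carriers were lower in 17 of 24 against the deficient kidneys, as many as against the controls. For intercalated cell genes these counts were 12 and 13 of 15, and for choline oxidation 13 and 15 of 18. Counts of higher genes lay further apart for several lists. Injury markers were higher in 7 of 30 against the deficient kidneys and in 24 of 30 against the controls. For acute phase genes these counts were 6 and 17 of 27, and for cell death genes of necroptosis and pyroptosis 1 and 11 of 20. Matrix glycoproteins differed from these lists, with 19 of 25 higher in both comparisons. Both comparisons share the necrotic arrays. List counts against the deficient kidneys were not rerun under other settings. With only the groups compared in the fit, that comparison gave 243 higher and 411 lower probe sets, against 1376 and 1484 with all groups. The deficient comparison rests on pools that differed from each other. On the amino acid carrier list their medians were -0.08 and -0.57, while on the injury list they were 0.72 and 0.80. Its counts fell from 1376 higher (4.71%) and 1484 lower (5.08%) probe sets to 411 and 629 without deficient replicate 1, to 510 and 802 without necrotic replicate 2, and its lower count to 859 without necrotic replicate 1. The choline effect in corn oil with necrosis also differed from that in fish oil, in 1117 probe sets upward (3.82%) and 1431 downward (4.9%). These counts were 379 and 643 without control corn oil replicate 1 and 389 and 566 without replicate 2.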

How the data were processed

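RNA of 10 pools was hybridised to 1 rat expression array each. Deposited values are log2 levels, which the authors computed with RMA, per the submitters' processing notes. Software, version and probe set definitions were not given in the sources used. The 4 arrays compared and the other 6 entered 1 limma 3.58.1 fit (R 4.3.3) with a mean per group, 5 residual and 3.59 prior degrees of freedom, and no filter. Array medians lay between 7.28 and 7.43. Two-sided moderated p-values received Benjamini-Hochberg adjustment across 29214 probe sets (threshold 0.05), and the fit was tested on simulated data. The labels do not say whether the pools of a group came from separate litters or cages. The p-values rest on a spread between pools estimated over all 5 groups, not only those compared. Pools of a group differed at least 2-fold in 166 (control corn oil) to 488 (deficient corn oil) probe sets. Genes came from an older platform annotation, matched by Entrez number to GRCr8, which served for names and promoters. Of the probe sets 15310 had 1 symbol, 323 several and 13581 were unnamed. Where a gene had several, the probe set with the highest mean stood for it.

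The 41 lists, their members and the tests were chosen with earlier results of these data known, and a list is described by counts and medians without a test of its own. Genes were named by rule: the 30 largest rises and falls that passed, the key genes chosen for each list, up to 6 of its largest changes that passed and, where none passed, its 3 smallest p-values. Nnmt, Ace, Grhl2, Lhx1, Masp1 and Trpv6 were named after their values were seen. One further promoter motif that was searched is not reported here. Alternatives were a fit of only the groups compared, median centring, quantile normalization, cyclic loess, a filter at the 50th percentile, a trended robust prior, a replicate block, the mean of a gene's probe sets and leaving out each array.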

Additional observations from a re-analysis of the deposited data

Results flagged for a closer look

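The difference of necrotic from control corn oil kidneys was unlike the effect of lacking choline under fish oil. The corn oil effect (necrotic minus control corn oil) minus the fish oil effect (fish oil without choline minus with it) was tested as an interaction in limma, 2 pools a group. It passed in 1117 probe sets in the positive direction (3.82%) and 1431 in the negative (4.9%). These counts fell to 379 and 643 without control corn oil replicate 1, 389 and 566 without its replicate 2, 502 and 744 without deficient fish oil replicate 1, 484 and 663 without its replicate 2, and 604 and 868 without control fish oil replicate 2. Without control fish oil replicate 1 the positive count was 736. The corn oil side carries the necrotic label and the fish oil side does not, so this interaction cannot tell fat from label. Deficient corn oil kidneys, which share the fat without the label, are not part of it. Slc34a1 read 13.83 and 13.69 there, Egf 12.49 and 12.01, and Fgb 10.88 and 11.45. The necrotic minus deficient differences of Slc34a1 and Egf, -3.26 and -4.57, passed. Those of Fgb, 0.42 (adjusted p = 0.552), and Havcr1, 0.92 (adjusted p = 0.43), did not. The shares of fat and label in the interaction were not tested.

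For 5 tubule genes the interaction was negative. Slc34a1 had an interaction of -3.51 ± 0.16 (adjusted p = 5.1e-05), with a fish oil effect of 0.00. Egf had -5.05 ± 0.24 and Slc12a3 -3.40 ± 0.21, with fish oil effects of 0.12 and 0.14. Lrp2, megalin, had -1.62 ± 0.23, and the transcription factor Hnf4a -1.37 ± 0.20, with fish oil effects of 0.11 and -0.03.

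Injury genes differed in the other direction. Havcr1 had an interaction of 4.94 ± 0.85 (adjusted p = 0.0108), with a fish oil effect of 1.83. The fish oil pools without choline read 9.30 and 7.22, and those with choline 6.49 and 6.37, so the effect was 0.79 without deficient fish oil replicate 1 and 2.87 without replicate 2. The heme oxygenase Hmox1 had 4.76 ± 0.67, the fibrinogen chain Fgb 3.40 ± 0.49 and fibronectin, Fn1, 1.18 ± 0.27 (adjusted p = 0.0295). Their fish oil effects were -0.07, 0.62 and 0.21. For Hmox1 the fish oil pools overlapped, at 9.63 and 8.34 without choline and 8.47 and 9.64 with it, and the effect lay between -0.72 and 0.57 with 1 fish oil pool left out. For Fgb they overlapped at 7.93 and 6.86 against 7.03 and 6.52, and the effect lay between 0.08 and 1.15. Ccl2 (1.09 ± 0.95, adjusted p = 0.538) and Chdh (-0.06 ± 0.28, adjusted p = 0.925) did not pass.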

How the results depend on the processing

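The interaction and both comparisons between corn oil groups kept their counts within 1.5 times the reported ones under every setting run, except where stated here. With only the groups compared in the fit, necrotic against deficient kidneys gave 243 higher and 411 lower probe sets. When 1 array was left out, necrotic against control kidneys gave 1413 to 2275 higher and 1590 to 2363 lower, necrotic against deficient kidneys 411 to 1409 higher and 629 to 1716 lower, and the interaction 379 to 855 higher and 566 to 1042 lower. An arm left with 1 array was assumed to vary like the other groups. Same-numbered necrotic and control pools did not deviate together (r = 0.00297 over probe sets, range over all pairs of groups -0.173 to 0.136). Each group gives a single difference between its replicates, so this cannot decide whether same-numbered pools shared any handling. A replicate block gave 2812 higher and 2967 lower against control kidneys. Of 255 named genes that passed, no direction was reversed. Many of them were named for large changes on these same arrays, which makes a reversal unlikely from the outset. Calls ended for 7 with only the groups compared, 6 each under median centring, quantile normalization and cyclic loess, 2 with a trended prior, 2 with the block (Bub1b and Mcm6), and 17 to 34 when 1 array was left out. Among 82 list counts, 1 moved by over 1.5 times with the block and 5 to 17 under the other settings that kept all 4 arrays. Hybridisation background was not analysed here, so low levels such as that of Cxcl2 in control kidneys have no detection limit.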
